A study of Arabidopsis thaliana with 11 samples.

Results

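The genes described here build the polarity machinery of asymmetric division in the stomatal lineage of Arabidopsis thaliana. There were 10 of them, listed by locus code under a rule that uses no measured value, though earlier results of these data were known when they were chosen: BASL (AT5G60880), POLAR (AT4G31805), the BRX family of BRX (AT1G31880), BRXL1 (AT2G35600), BRXL2 (AT3G14000), BRXL3 (AT1G54180) and BRXL4 (AT5G20540), and the phosphatases BSL1 (AT4G03080), BSL2 (AT1G08420) and BSL3 (AT2G27210). They are 10 of the 33602 genes in the deposited table, and all 10 were among the 29850 genes that passed the filter on low values and were tested.

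RNA sequencing was done on protoplasts that fluorescence-activated sorting collected from the shoots of 10-day-old Columbia seedlings, each line carrying its own fluorescent marker. For all groups the plants grew at 25 °C with 16 hours of light and 8 hours of dark, and protoplasting took 2 hours. SSY (3 libraries) carries SPCHp::SPCH-YFP, a fusion of the lineage-initiating factor SPCH to YFP under its own promoter, and was labelled as meristemoid mother cells and young meristemoids. MG (2 libraries) carries MUTEp::nucGFP, a nuclear GFP driven by the MUTE promoter, and stands for late meristemoids with young guard mother cells. FGF (2 libraries) carries FAMAp::GFP-FAMA, a GFP fusion of the factor FAMA, and stands for older guard mother cells with young guard cells. E1728G (2 libraries) is the enhancer trap E1728::GFP, which marks mature guard cells. ML1Y (2 libraries) carries ML1p::YFP-RCI2A, a membrane-bound YFP driven by an epidermal promoter, and stands for the epidermis as a whole, so it holds lineage cells too. The SSY and FGF lines therefore carry an added copy of SPCH and of FAMA. Each library came from 4000 to 20000 cells, and the labels do not say whether the libraries of a group came from separate plants, so p-values measure the spread between libraries, which may be technical.

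A meristemoid mother cell divides unequally, and the smaller daughter, the meristemoid, goes on toward a stoma. BASL gathers as a crescent at the cell cortex on the side away from the coming small daughter and works there as a scaffold that brings in the YODA mitogen-activated protein kinase cascade. POLAR sits in the same crescent and recruits GSK3-like kinases, the proteins of the BRX family are polarised with BASL and depend on it, and the BSL proteins are phosphatases with Kelch repeats that bind BASL and act on both kinase pathways. This polarity is known from the unequal divisions of precursors, which precede the symmetric division of the guard mother cell.

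The values are log2-scale levels normalized by the authors, and a difference of 1 is a doubling under that reading. Between groups they were compared with limma, 1 fit of all 11 libraries with p-values adjusted over all 29850 tested genes, two-sided, at a threshold of 0.05. Differences are given ± the standard error of that fit, and levels as mean ± SD. Read depth is unknown, since the table holds no counts. In sorted bulk samples, fewer expressing cells and less RNA per cell cannot be told apart.

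Some features of the libraries touch the results. The SSY libraries stood apart: across genes, the highest Spearman correlation of each within its own group was 0.799 to 0.805, against 0.891 to 0.946 in the other groups. Some libraries were nearer to one of another group than to their own. These were SSY replicate 1 (0.813 against 0.799), MG replicate 1 (0.907 against 0.891), FGF replicate 1 (0.934 against 0.914) and E1728G replicate 2 (0.934 against 0.9). MUTE, the factor whose promoter drives the MG marker, was 4.21 ± 0.64 higher on the log2 scale in MG than in ML1Y (limma, adjusted p = 0.00467), and FAMA was 5.88 ± 0.82 higher in FGF than in ML1Y (adjusted p = 0.0024). SPCH had 5.46, 6.12 and 5.15 in the SSY libraries, against 6.36 and 5.92 in ML1Y, so the gene behind the SSY marker was not higher there (difference -0.56 ± 0.62, adjusted p = 0.649). FAMA, which marks later stages, was 2.96 ± 0.75 higher in SSY than in ML1Y (adjusted p = 0.0317). The values of SPCH and FAMA thus go against the stage in the SSY label, and SSY below names the libraries labelled so. The summed level of 5 guard cell markers, set almost wholly by TGG1, a myrosinase, was 18.64 to 20.71 in SSY, 16.98 to 17.28 in MG, 19.98 to 20.73 in FGF, 20.44 to 20.85 in E1728G and 16.72 to 16.99 in ML1Y. TGG1 was the 1 guard cell marker that passed in SSY against ML1Y (2.82 ± 0.49, adjusted p = 0.00372). Without TGG1, the sum of the other 4 was 8.98 to 9.95 in SSY, 8.26 to 9.37 in MG, 11.18 to 11.43 in FGF, 10.94 to 11.25 in E1728G and 8.40 to 8.49 in ML1Y, so SSY lay below FGF and E1728G. That of 5 photosynthesis markers was 13.02 to 14.67 over the 4 stages and 17.80 to 18.09 in ML1Y, and all 5 passed the test as lower in every stage than in ML1Y. That of 6 vascular markers was 7.54 to 8.49 over the stages and 8.65 to 8.67 in ML1Y, where XCP2, a xylem protease, was the 1 marker that passed and the others went both ways. That of 5 epidermal markers was 10.94 to 12.75 in SSY, 12.69 to 14.34 in MG, 11.88 to 12.11 in FGF, 11.72 to 12.02 in E1728G and 11.11 to 11.53 in ML1Y, and SSY overlapped MG. The lowest level of any of these 21 markers in any library was 3.59 (APL, a vascular marker), near the filter at 3.32. Such a low value does not show whether a cell type was present. The part of other cell types in the differences below was not tested.

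POLAR stood out among the polarity genes. It was high in SSY and MG and low in FGF, E1728G and ML1Y, and its 5 SSY and MG libraries (6.91 to 10.01) all lay above the other 6 (5.53 to 6.19). BRXL2 was highest in SSY, BRX was highest in E1728G, BRXL1 was highest in ML1Y, and BSL2 and BSL3 were higher in MG, FGF and E1728G than in ML1Y. The mean of BASL was low in every group, lowest in SSY (4.22) and highest in MG (5.15), against 4.80 in ML1Y. These are orders of means. None of the 10 genes passed the threshold in any of the 10 comparisons of the limma fit as reported; under alternatives between 0 and 2 did in a comparison, POLAR most often.

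Against ML1Y, 0 of 10 polarity genes passed in each stage. The share of all tested genes that passed in either direction was 5.55% for SSY, 1.61% for MG, 2.11% for FGF and 2.44% for E1728G. At an unadjusted p under 0.05 there were 3 polarity genes in SSY (POLAR, BRXL1 and BRXL2), 2 in MG (POLAR and BSL3), 0 in FGF and 1 in E1728G (BRX). Of all tested genes, 19.6% had such a p in SSY, 10.7% in MG, 12.1% in FGF and 12.8% in E1728G. The libraries of stage and ML1Y did not overlap for 6 polarity genes in SSY, 6 in MG, 6 in FGF and 5 in E1728G. Among all tested genes that held for 39.1% in SSY, 44.1% in MG, 51.5% in FGF and 50.8% in E1728G. A separation of such small groups was thus common for any gene. The median difference of the 10 genes was 0.78 in MG against ML1Y, with 8 of 10 positive, where the median of all tested genes was 0.03. MG replicate 1 carried that value: without it the median was 0.10 with 6 of 10 positive, and without MG replicate 2 it was 1.21 with 8 of 10. The median was 0.08 in SSY, 0.14 in FGF and 0.01 in E1728G against ML1Y, where all tested genes had 0.06, 0.04 and 0.03. With 1 library of the pair left out it ran between -0.03 and 0.30 in SSY, between -0.11 and 0.26 in FGF and up to 0.14 in E1728G.

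Between stages the count was again 0 of 10 in each of 6 pairs. The share of all tested genes that passed was 2.12% for MG against SSY, 1.91% for FGF against SSY, 2.13% for E1728G against SSY, 0.137% for FGF against MG, 0.583% for E1728G against MG and 0.0101% for E1728G against FGF, so a call was rare for any gene between FGF and E1728G. Each pair held 1 polarity gene with an unadjusted p under 0.05 except FGF against SSY, which held 2 (POLAR and BRXL2). Of all tested genes, 17.4% had such a p in MG against SSY, 16.4% in FGF against SSY, 16.1% in E1728G against SSY, 8.35% in FGF against MG, 10% in E1728G against MG and 3.54% in E1728G against FGF. Libraries of the pair did not overlap for 2 polarity genes in MG against SSY, 5 in FGF against SSY, 5 in E1728G against SSY, 2 in FGF against MG, 4 in E1728G against MG and 3 in E1728G against FGF. The same held for 31.2%, 34.2%, 31.4%, 36.6%, 38.4% and 32.2% of all tested genes in that order of pairs. A single F test over the 5 groups also called 0 of 10, where 6.21% of all tested genes passed, with 2 polarity genes (POLAR and BRXL2) at an unadjusted p under 0.05, as 21% of all tested genes had, and POLAR came nearest with an adjusted p of 0.0529. Of the 100 member tests, 13 had an unadjusted p under 0.05, and 6 of those were of POLAR. Over all tested genes and the 10 comparisons together the share was 12.7%, near that of the member tests. The 10 comparisons share libraries, so the tests of a gene are not separate evidence about the set.

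**Figure D1:**
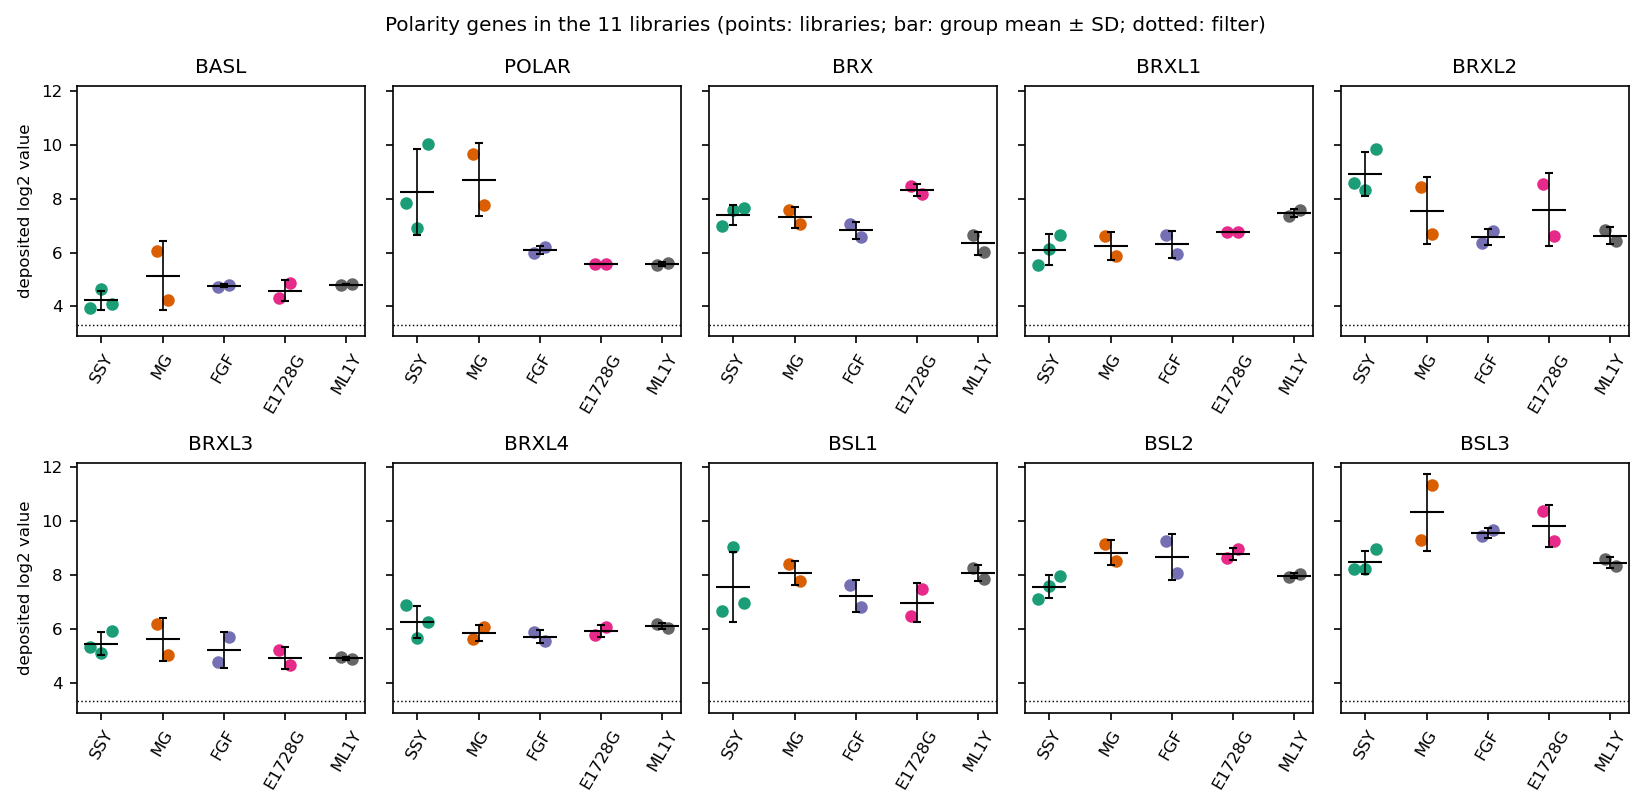
Deposited log2 level of the 10 polarity genes in each of the 11 libraries (points), by sorted group in the order SSY, MG, FGF, E1728G, ML1Y, with the group mean (bar) ± SD; the dotted line is the filter at 3.32. The 5 SSY and MG points of POLAR lie between 6.91 and 10.01 and its other 6 between 5.53 and 6.19, while the points of BASL stay between 3.96 and 6.05.

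POLAR is a plant protein of the BASL crescent that brings GSK3-like kinases to the cortex. It had 7.85, 6.91 and 10.01 in the 3 SSY libraries and 9.67 and 7.75 in the MG libraries. It had 5.99 and 6.19 in FGF, 5.57 and 5.59 in E1728G and 5.53 and 5.63 in ML1Y. Every SSY and MG library was therefore higher than every FGF, E1728G and ML1Y library, but these 5 spread far more widely among themselves than the 6 others did. Of all 29850 tested genes, 162 (0.543%) likewise had their 5 SSY and MG libraries above the other 6, and no other polarity gene did. This split follows the order seen in POLAR, so the share is a description and no test. BSL2 and BSL3 were separated without overlap by another split, given below.

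The difference of POLAR from ML1Y was 2.68 ± 0.81 in SSY (6.39-fold, 95% interval 0.95 to 4.40, limma adjusted p = 0.0712) and 3.13 ± 0.89 in MG (8.74-fold, interval 1.24 to 5.02, adjusted p = 0.113). Neither passed, although the unadjusted p was 0.00496 in SSY and 0.00316 in MG. In FGF the difference was 0.51 ± 0.89 (adjusted p = 0.944), and in E1728G it was 0.00 ± 0.89 (adjusted p = 1). The interval of the E1728G difference was -1.89 to 1.90. From stage to stage, the difference of POLAR was -2.62 ± 0.89 in FGF against MG (adjusted p = 0.326) and -3.13 ± 0.89 in E1728G against MG (adjusted p = 0.146). Against SSY it was -2.16 ± 0.81 in FGF (adjusted p = 0.189) and -2.67 ± 0.81 in E1728G (adjusted p = 0.103), and the libraries of MG and SSY overlapped (0.45 ± 0.81, adjusted p = 0.8). Its order of means was MG (8.71 ± 1.36), SSY (8.25 ± 1.59), FGF (6.09 ± 0.14), E1728G (5.58 ± 0.01) and ML1Y (5.58 ± 0.07), and no neighbours in it differed by the test. Whether POLAR passed turned on single libraries: without SSY replicate 2, the lowest of its group, the SSY difference was 3.35 (adjusted p = 0.0345), and without SSY replicate 3 the MG difference passed (adjusted p = 0.0349). POLAR also passed in SSY against ML1Y after quantile normalization (3.16, adjusted p = 0.0317) and with library quality weights (2.75, adjusted p = 0.0248).

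Among tested genes ranked by level per coding base, POLAR lay at the 79.8 to 95.9 percentile in SSY and the 80.3 to 93.0 percentile in MG. It lay at 56.7 to 61.3 in FGF, 51.1 to 53.9 in E1728G and 45.6 to 47.7 in ML1Y. The ranking covered the 25096 tested genes with a coding length, so genes below the filter are not in it. In the annotation, POLAR overlaps AT4G31810 on the opposite strand by 310 bases, and whether reads were counted by strand is not given, so reads there cannot be told apart. The neighbour had another order of means than POLAR, with 6.41 ± 0.62 in SSY, 6.81 ± 0.94 in MG, 6.11 ± 0.69 in FGF, 6.35 ± 0.83 in E1728G and 6.83 ± 1.00 in ML1Y, and its difference between MG and ML1Y was -0.02 ± 0.73 (adjusted p = 1).

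The promoter windows of 3 genes are shown because POLAR and BRXL2 had the highest differences from ML1Y in SSY among the 10 genes, and BASL, the scaffold, had a lower mean in SSY than in ML1Y. Each is the 250 bases before the annotated gene start in the RefSeq TAIR10.1 assembly, read 5′ to 3′ on the gene's strand; the deposited table, made on TAIR10, holds no coordinates. The windows lie at chr4:15385030-15385279 on the plus strand for POLAR, chr3:4634082-4634331 on the minus strand for BRXL2 and chr5:24489837-24490086 on the minus strand for BASL. Capitals mark CANNTG, the E-box core that basic helix-loop-helix factors such as SPCH can bind, which reads the same on both strands and includes CACGTG.
POLAR: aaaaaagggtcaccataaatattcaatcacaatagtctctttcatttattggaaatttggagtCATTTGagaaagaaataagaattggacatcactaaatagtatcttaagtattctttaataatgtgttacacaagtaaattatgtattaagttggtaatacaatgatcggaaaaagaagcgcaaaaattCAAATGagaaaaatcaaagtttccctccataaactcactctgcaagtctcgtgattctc
BRXL2: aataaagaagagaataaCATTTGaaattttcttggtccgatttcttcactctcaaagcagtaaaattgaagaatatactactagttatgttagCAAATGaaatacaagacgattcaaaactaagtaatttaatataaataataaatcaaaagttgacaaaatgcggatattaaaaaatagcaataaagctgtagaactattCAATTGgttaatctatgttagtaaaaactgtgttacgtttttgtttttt
BASL: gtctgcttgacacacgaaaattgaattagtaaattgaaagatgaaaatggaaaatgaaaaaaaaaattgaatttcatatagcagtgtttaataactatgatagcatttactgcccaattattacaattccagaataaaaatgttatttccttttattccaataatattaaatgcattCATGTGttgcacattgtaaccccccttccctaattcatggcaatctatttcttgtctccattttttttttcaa
CANNTG occurred 2 times in the POLAR window, 3 times in that of BRXL2 and 1 time in that of BASL. Of 27443 promoter windows of the same length, 55.3% held at least 1, 20.3% at least 2 and 5.69% at least 3. CACGTG, found in 6.49% of all windows, was in none of the 10 members' windows. The windows of BRXL1, BRXL3, BSL2 and BSL3 held 1 CANNTG each, and those of BRX, BRXL4 and BSL1 held 0. Such matches describe letters, not binding.

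BASL, the scaffold of the crescent, was at a low level in all sorts. It had 3.96, 4.63 and 4.08 in SSY, 6.05 and 4.24 in MG, 4.74 and 4.81 in FGF, 4.32 and 4.86 in E1728G, and 4.79 and 4.82 in ML1Y. The single high value was MG replicate 1, and all 3 SSY libraries were below both ML1Y libraries. The difference from ML1Y was -0.58 ± 0.50 in SSY (95% interval -1.65 to 0.50, limma adjusted p = 0.557) and 0.34 ± 0.55 in MG (interval -0.83 to 1.52, adjusted p = 0.975). It was -0.03 ± 0.55 in FGF (adjusted p = 0.998) and -0.21 ± 0.55 in E1728G (adjusted p = 0.965). Differences from -1.65 to 0.50 in SSY and from -0.83 to 1.52 in MG lie within the intervals. Changes of BASL within those ranges are not excluded here. The largest stage difference was MG against SSY, 0.92 ± 0.50 (adjusted p = 0.363), and its libraries overlapped. In the order MG, ML1Y, FGF, E1728G and SSY, no neighbours differed by the test. Per coding base, BASL lay at the 16.4 to 35.0 percentile in SSY and the 28.8 to 59.5 percentile in MG, against 42.3 to 43.8 in FGF, 32.0 to 44.2 in E1728G and 38.7 to 39.4 in ML1Y. The gene lay closest of the 10 to the filter, and it was not tested when that was raised to a linear value of 50.

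**Figure D2:**
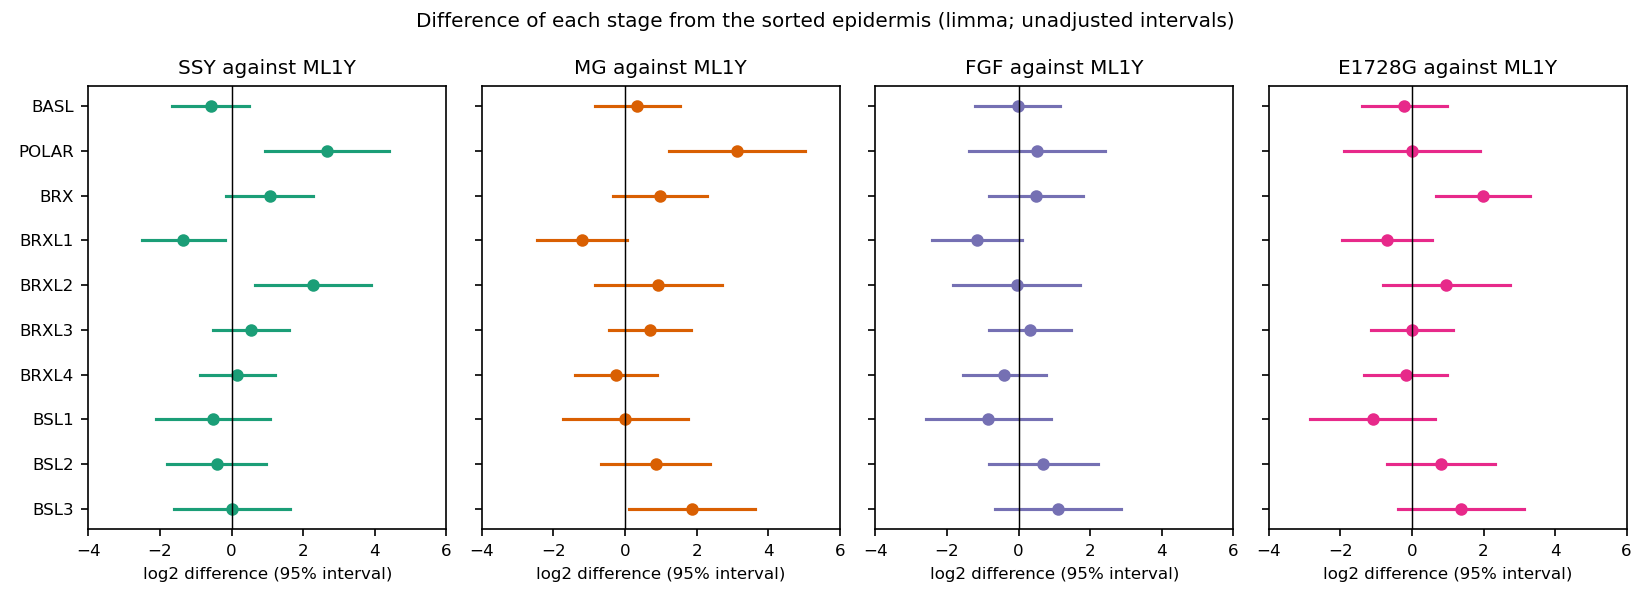
Difference of each stage from ML1Y in log2 units for the 10 polarity genes (points) with the unadjusted 95% interval of the limma fit (lines), 1 panel a stage in the order SSY, MG, FGF, E1728G. The intervals of POLAR lie above 0 in SSY (0.95 to 4.40) and MG (1.24 to 5.02), those of BRXL2 in SSY (0.66 to 3.90), BSL3 in MG (0.10 to 3.63) and BRX in E1728G (0.66 to 3.30) too, that of BRXL1 in SSY lies below 0 (-2.50 to -0.20), and none of the 40 differences passed after adjustment.

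The BRX family encodes plant-specific proteins with BRX domains that bind membranes and are polarised together with BASL; BRX itself was first known from root growth. BRXL2, the member most used as a polarity marker in the lineage, had 8.56, 8.33 and 9.84 in SSY and 8.42 and 6.68 in MG. It had 6.36 and 6.79 in FGF, 8.54 and 6.63 in E1728G, and 6.84 and 6.41 in ML1Y. All 3 SSY libraries lay above those of FGF and ML1Y, while MG and E1728G each had 1 high and 1 low library. The difference was 2.28 ± 0.76 in SSY against ML1Y (4.86-fold, 95% interval 0.66 to 3.90, limma adjusted p = 0.102) and -2.34 ± 0.76 in FGF against SSY (adjusted p = 0.131). It passed in SSY against ML1Y under quantile normalization only (2.88, adjusted p = 0.0312). MG against ML1Y gave 0.93 ± 0.83 (adjusted p = 0.871), and the order of means was SSY, E1728G, MG, ML1Y and FGF.

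BRX had 6.97, 7.59 and 7.64 in SSY, 7.58 and 7.04 in MG, 7.05 and 6.59 in FGF, 8.47 and 8.16 in E1728G, and 6.64 and 6.04 in ML1Y. Both mature guard cell libraries were above all 9 others, a split not counted over all tested genes. The difference of E1728G from ML1Y was 1.98 ± 0.62 (3.94-fold, 95% interval 0.66 to 3.30, limma adjusted p = 0.128), and E1728G was 2.82-fold above FGF (adjusted p = 1). Neither passed in the fit as reported; with library quality weights the first did (1.98, adjusted p = 0.022). SSY and MG were also above ML1Y without overlap, by 1.06 ± 0.56 (adjusted p = 0.319) and 0.97 ± 0.62 (adjusted p = 0.692). In the order E1728G, SSY, MG, FGF and ML1Y, no neighbours differed by the test.

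BRXL1 ran the other way. It had 5.53, 6.14 and 6.66 in SSY, 6.61 and 5.89 in MG, 6.65 and 5.96 in FGF, 6.77 and 6.77 in E1728G, and 7.35 and 7.57 in ML1Y, so every stage library was below both ML1Y libraries. The difference from ML1Y was -1.35 ± 0.54 in SSY (limma adjusted p = 0.177), -1.21 ± 0.59 in MG (adjusted p = 0.5), -1.15 ± 0.59 in FGF (adjusted p = 0.484) and -0.69 ± 0.59 in E1728G (adjusted p = 0.77). The 4 comparisons share the same ML1Y libraries, the ones with higher photosynthesis markers. BRXL1 had the same sign in all 4, but none passed. How many of all tested genes had every stage library below ML1Y was not counted.

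BRXL3 and BRXL4 had the narrowest range of group means in the family. BRXL3 had 5.33, 5.11 and 5.94 in SSY, 6.18 and 5.05 in MG, 4.76 and 5.70 in FGF, 5.20 and 4.65 in E1728G, and 4.95 and 4.88 in ML1Y. Its SSY and MG libraries were above ML1Y without overlap, by 0.54 ± 0.49 (limma adjusted p = 0.573) and 0.70 ± 0.54 (adjusted p = 0.8). BRXL4 had 6.88, 5.67 and 6.26 in SSY, 5.64 and 6.06 in MG, 5.89 and 5.55 in FGF, 5.78 and 6.08 in E1728G, and 6.19 and 6.03 in ML1Y. Its group means spanned 5.72 to 6.27, with SSY highest and FGF lowest, and its lowest adjusted p in any comparison with ML1Y was 0.885.

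The leading BRX gene was the same in all libraries of SSY (BRXL2) and of ML1Y (BRXL1), while MG, FGF and E1728G were each split between BRXL2 and BRX. Shares were taken of the summed linear level, 2 to the power of the deposited value, per coding base. BRXL2 made up 46.9 to 66.6% of the family in SSY, against 18.4 to 22.7% in ML1Y. BRX made up 38.7 to 48.9% in E1728G, against 14.9 to 20.6% in ML1Y, but in E1728G replicate 1 BRXL2 had 38.9% and BRX 38.7%. BRXL1 made up 7.28 to 11.6% in SSY, against 36.4 to 46.5% in ML1Y. BRXL2 was the highest member in 6 libraries, BRX in 3 and BRXL1 in the 2 ML1Y libraries, and the same counts held without division by length. BRXL3 never exceeded 13.8% and BRXL4 never exceeded 16.0%. No stretch of 36 coding bases was common to any pair of the family, so coding reads of at least that length can be assigned to 1 member; the read length is not known.

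**Figure D3:**
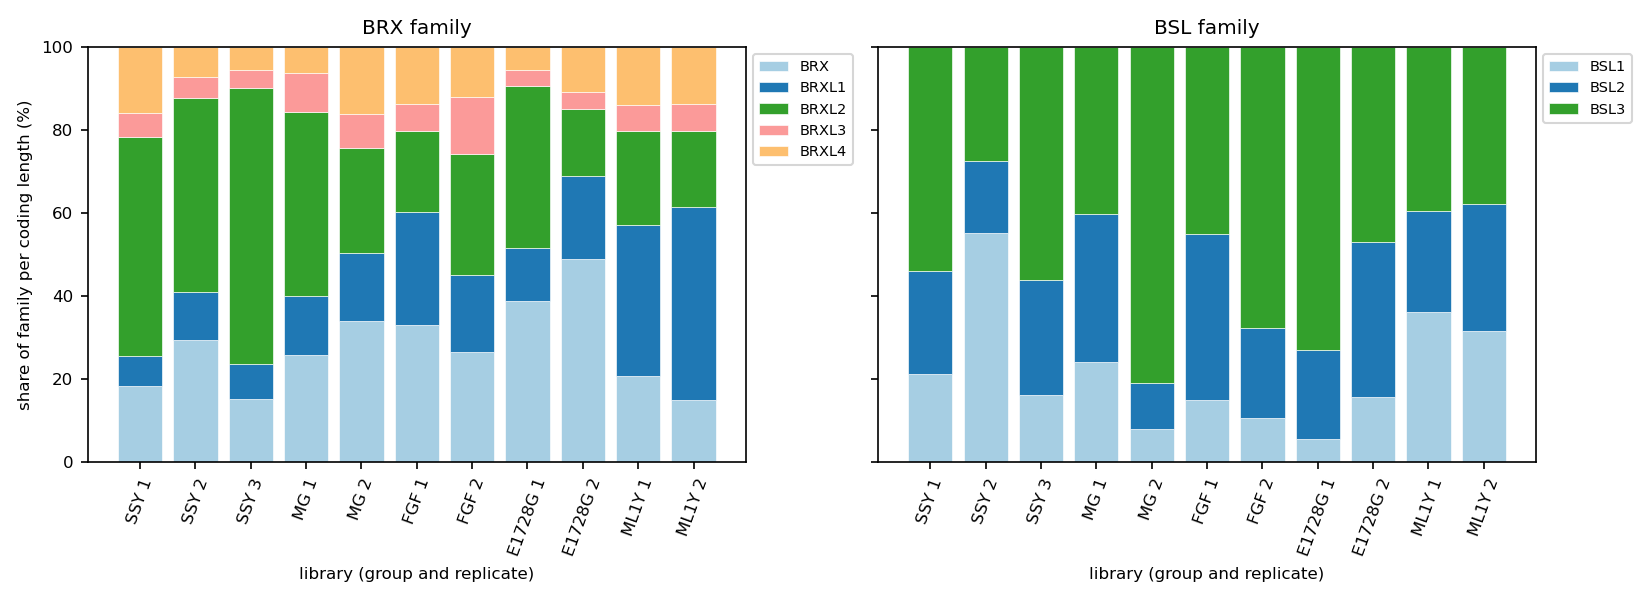
Share of the summed linear level per coding base that each gene takes within the BRX family (left) and the BSL family (right), in percent, 1 stacked bar a library, ordered SSY, MG, FGF, E1728G, ML1Y. BRXL2 takes 46.9 to 66.6% in the SSY bars and BRXL1 36.4 to 46.5% in the ML1Y bars; BSL3 is the largest BSL segment in 10 of 11 bars.

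The BSL phosphatases carry a Kelch-repeat part and a phosphatase part and are known from brassinosteroid signalling, where with BSU1 they act on GSK3-like kinases. BSL3 had 8.21, 8.23 and 8.98 in SSY, 9.32 and 11.34 in MG, 9.44 and 9.68 in FGF, 10.38 and 9.27 in E1728G, and 8.60 and 8.33 in ML1Y. The libraries of MG, FGF and E1728G were all above those of SSY and ML1Y, which overlapped with each other. How many of all tested genes split this way was not counted. The difference was 1.87 ± 0.82 in MG against ML1Y (3.65-fold, 95% interval 0.10 to 3.63, limma adjusted p = 0.42) and 1.86 ± 0.75 in MG against SSY (adjusted p = 0.22). In FGF it was 1.10 ± 0.82 (adjusted p = 0.728) and in E1728G 1.36 ± 0.82 (adjusted p = 0.58), both against ML1Y. In SSY it was 0.01 ± 0.75 (adjusted p = 0.995). The order of means was MG, E1728G, FGF, SSY and ML1Y.

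BSL2 followed a like order. It had 7.12, 7.58 and 7.98 in SSY, 9.16 and 8.51 in MG, 9.28 and 8.07 in FGF, 8.63 and 8.95 in E1728G, and 7.91 and 8.05 in ML1Y. MG, FGF and E1728G were again above SSY and ML1Y without overlap, a split not counted over all tested genes. The difference from ML1Y was 0.86 ± 0.71 in MG (limma adjusted p = 0.839), 0.69 ± 0.71 in FGF (adjusted p = 0.848) and 0.81 ± 0.71 in E1728G (adjusted p = 0.779), and MG was 1.28 ± 0.65 above SSY (adjusted p = 0.328). BSL1 had 6.67, 9.04 and 6.98 in SSY, 8.39 and 7.77 in MG, 7.65 and 6.80 in FGF, 6.47 and 7.49 in E1728G, and 8.28 and 7.87 in ML1Y. Its FGF and E1728G libraries were below MG and ML1Y without overlap, with a difference of -0.85 ± 0.82 in FGF against ML1Y (adjusted p = 0.827) and -1.10 ± 0.82 in E1728G against ML1Y (adjusted p = 0.702). The BSL1 split was not counted over all tested genes either. SSY replicate 2 was the highest BSL1 library of all, and the order of means was MG, ML1Y, SSY, FGF and E1728G. BSL1 overlaps AOP1, whose product acts in glucosinolate synthesis, and a long non-coding gene, both on the opposite strand, so a part of its reads may be uncertain.

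Per coding base, BSL3 was the highest BSL gene in 10 of 11 libraries. Its share was 27.5 to 56.2% in SSY, 40.2 to 80.9% in MG, 45.2 to 67.7% in FGF, 47.1 to 73.0% in E1728G and 37.8 to 39.6% in ML1Y. The exception was SSY replicate 2, in which BSL1 took 55.1%. BSL2 and BSL3 are close in sequence: 101 stretches of 36 coding bases were common to both, 3.34% of those of BSL2 and 3.38% of those of BSL3, so a small part of short reads could come from either. The longest run they share exactly is shown for that reason; it has 77 bases and is coding position 2602 to 2678 of BSL2 and 2569 to 2645 of BSL3. It spans an intron in both genes, at chr1:2655576-2655731 and chr2:11635193-11635352 (plus strand, RefSeq TAIR10.1), and is printed 5′ to 3′ in lower case because no base of it differs.
BSL2 and BSL3: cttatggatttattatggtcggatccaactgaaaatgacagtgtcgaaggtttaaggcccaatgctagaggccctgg

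Libraries of 1 group also differed. MG replicate 1 was above MG replicate 2 for 8 of 10 polarity genes, with a median difference of 0.68, against 48.7% of all tested genes and a median of -0.03. In SSY replicate 1 was above replicate 2 for 4 of 10, and in FGF, E1728G and ML1Y replicate 1 was above replicate 2 for 5, 5 and 6 of 10. Over the 11 libraries, the highest Pearson's r among pairs of polarity genes was 0.797 between POLAR and BRXL3 (Spearman 0.682). It was 0.701 between POLAR and BRXL2 (Spearman 0.473) and 0.67 between BRXL2 and BRXL3 (Spearman 0.791). BSL2 and BSL3 had 0.538 (Spearman 0.718), and BASL and POLAR had 0.0723 (Spearman -0.336). The first pairs are named because their r was highest. These are descriptions over 11 libraries that share groups and normalization.

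The genes most like POLAR over the 11 libraries, among 7984 tested genes with a symbol and a highest group mean at or above the median, were PRL (r = 0.92), a subunit of the replicative MCM helicase, SOL1 (r = 0.916), a CXC-domain protein that acts in the stomatal lineage, FU (r = 0.904), the FUSED kinase of cytokinesis, ESL1 (r = 0.888), a sugar transporter of the ERD6 group, and FLP (r = 0.868), a MYB factor that limits divisions of the guard mother cell. Spearman's correlation with POLAR was 0.645 for PRL and 0.845 to 0.927 for the others. All 5 had means of 7.09 to 9.34 in SSY and MG, against 5.94 to 7.51 in FGF, E1728G and ML1Y. Those most like BASL were TUB9 (r = 0.94), a tubulin, PYR6 (r = 0.915), a nucleoside monophosphate kinase, PAO4 (r = 0.913), a polyamine oxidase, RLP4 (r = 0.913), a receptor-like protein, and NF-YA5 (r = 0.91), a CCAAT-binding subunit. Each of those 5 had its highest mean in MG, as BASL did. Spearman's correlation with BASL was 0.945 for TUB9 and 0.736 to 0.791 for the others. The genes of both lists were picked by r over these same libraries, so a likeness of their group means follows in part from the choice. The high MG mean of BASL rests on replicate 1 (6.05, against 4.24 in replicate 2).

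**Figure D4:**
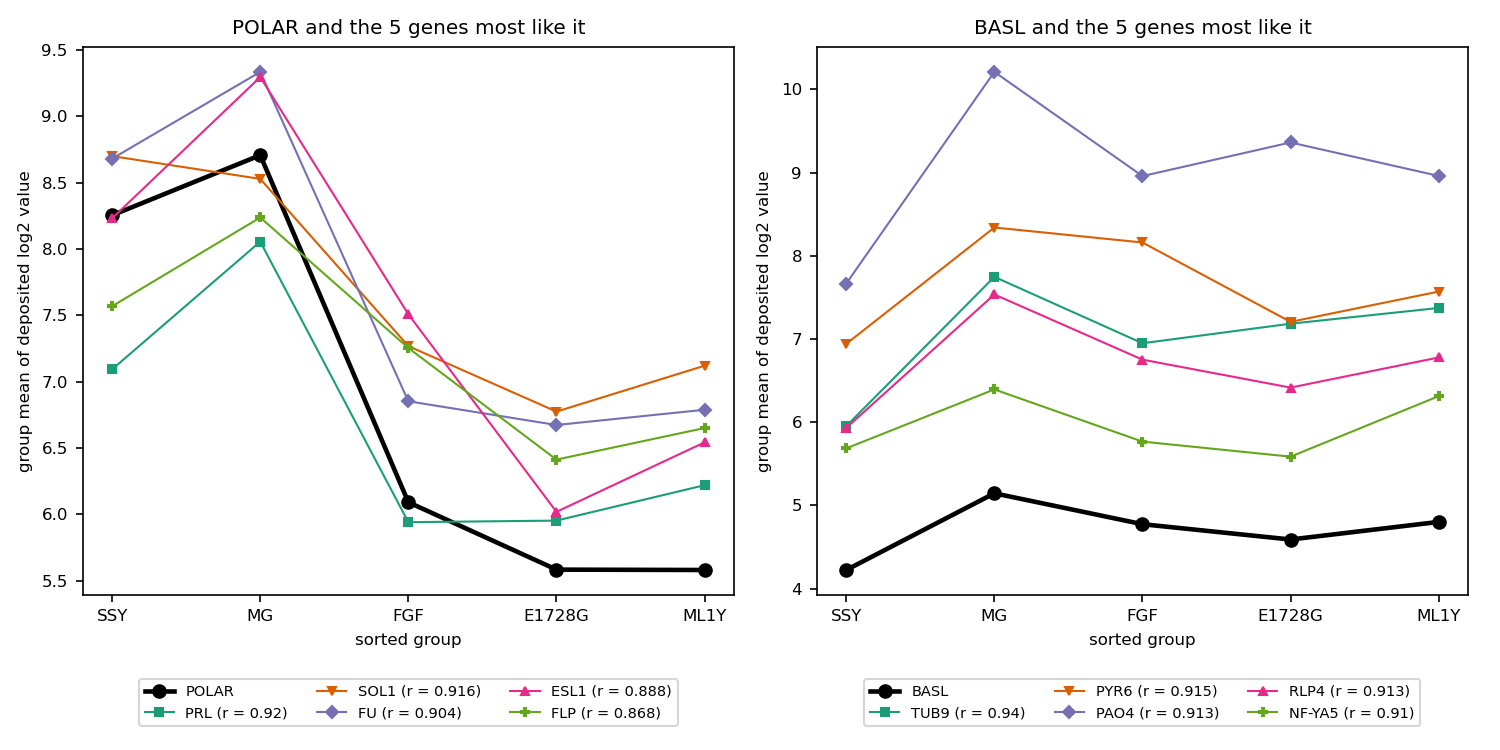
Group means of the deposited log2 level for POLAR (left) and BASL (right), in black, with the 5 genes of highest Pearson r over the 11 libraries in colour, by sorted group in the order SSY, MG, FGF, E1728G, ML1Y. POLAR has 8.25 in SSY and 8.71 in MG, against 6.09 or less in the other groups, while BASL stays between 4.22 and 5.15.

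The partners of the polarity crescent were read from lists of related genes. Of the 5 genes of the YODA cascade, MKK4, a kinase that acts below YDA, was lower in SSY than in ML1Y. It had 5.38, 5.39 and 4.40 in SSY, against 7.30 and 8.18 in ML1Y, a difference of -2.69 ± 0.65 (limma adjusted p = 0.0251). The call held in 15 of 19 alternatives; MKK4 missed the threshold without ML1Y replicate 1 (adjusted p = 0.0909), ML1Y replicate 2 (0.285) or SSY replicate 3 (0.0805), and with a replicate block (0.0854). MKK4 was also below both ML1Y libraries in every library of the other stages, with differences of -1.62 ± 0.71 in MG (adjusted p = 0.413), -2.40 ± 0.71 in FGF (adjusted p = 0.11) and -2.01 ± 0.71 in E1728G (adjusted p = 0.195), so the difference was not shown to be particular to SSY. The call in SSY was the 1 among the cascade's 50 tests, of which 10 had an unadjusted p under 0.05, against 12.7% of all tests over all genes. All 5 cascade genes had a negative difference in SSY against ML1Y, with a median of -1.87, where all tested genes had 0.06. MKK5, the partner of MKK4, averaged 6.21 ± 1.03 in SSY and 8.21 ± 0.39 in ML1Y (adjusted p = 0.108), and the difference of SSY from ML1Y was -1.87 ± 0.86 for MPK3 (adjusted p = 0.245), -1.08 ± 0.68 for YDA itself (adjusted p = 0.399) and -0.60 ± 0.83 for MPK6 (adjusted p = 0.722).

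None of the 7 GSK3-like kinases and brassinosteroid partners passed in any comparison with limma; the lowest adjusted p was 0.362, in E1728G against SSY, and 0 of 70 tests had an unadjusted p under 0.05. BSU1, the phosphatase related to the BSL proteins, had 6.24 ± 0.25 in SSY, 6.07 ± 0.06 in MG, 5.80 ± 0.07 in FGF, 5.99 ± 0.05 in E1728G and 6.75 ± 0.45 in ML1Y. Of 8 other polarised membrane proteins, 0 passed with limma, with a lowest adjusted p of 0.172 in FGF against ML1Y and 3 of 80 tests at an unadjusted p under 0.05. Of 9 genes of division plane and nuclear positioning, 0 passed with limma, and 13 of 90 tests had an unadjusted p under 0.05, near the 12.7% of all genes' tests. POK1, a kinesin that marks the cortical division site, came nearest: it had 10.54 and 9.37 in MG, against 7.20 and 7.20 in ML1Y (2.75 ± 0.75, adjusted p = 0.0977), and its relative POK2 had 10.26 and 9.92 in MG, against 8.14 and 8.34 in ML1Y (1.85 ± 0.72, adjusted p = 0.318).

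Of the 5 basic helix-loop-helix factors that set the stages, the calls against ML1Y were FAMA in SSY and in FGF, MUTE in MG, and ICE1, the partner of the stage factors, in E1728G (3.46 ± 0.84, adjusted p = 0.0438). MUTE was also 3.89 ± 0.58 higher in MG than in SSY (limma adjusted p = 0.00872), lower in FGF than in MG (-4.57 ± 0.64, adjusted p = 0.024) and in E1728G than in MG (-4.41 ± 0.64, adjusted p = 0.01). Over all alternatives, MUTE passed in 18 of 20 in MG against ML1Y and in 17 of 19 in MG against SSY. It passed in 12 of 20 in FGF against MG and in 17 of 20 in E1728G against MG. FAMA passed in 18 of 20 in FGF and in 13 of 19 in SSY against ML1Y, and ICE1 in 11 of 20 in E1728G against ML1Y. Each of these calls was lost when some single library was left out. MUTE missed the threshold in MG against ML1Y without MG replicate 2 (adjusted p = 0.0502) or ML1Y replicate 2 (0.0864), in MG against SSY without MG replicate 2 (0.0618), and in E1728G against MG without MG replicate 2 (0.0639) or E1728G replicate 1 (0.0983). In FGF against MG the call of MUTE was lost without MG replicate 2 (0.0838) or any FGF or ML1Y library (0.0571 to 0.111). FAMA missed it in FGF against ML1Y without FGF replicate 2 (0.0503) or ML1Y replicate 2 (0.0547), and in SSY against ML1Y without SSY replicate 1 (0.053), FGF replicate 2 (0.0502) or either ML1Y library (0.17 and 0.322). ICE1 in E1728G against ML1Y missed it without E1728G replicate 1 (0.457), either ML1Y library (0.248 and 0.328) or any MG or FGF library (0.0624 to 0.0684).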

How the data were processed

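The members and gene lists were chosen with earlier results of these data known. Per the submitters' processing notes the authors used Bowtie2, DESeq2 and the build TAIR10, without versions; counter, annotation, transformation and strandedness: not given in the sources used here. Values normalized over libraries were deposited by the authors on a log2 scale (base 2 inferred), from -4.00 to 21.57, so depth is unknown and no counting interval can be given. A transformation that shrinks low values would understate differences of low genes such as BASL.

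Values were used as deposited. Genes with a linear value of at least 10 (log2 3.32) in at least 2 of 11 libraries entered a limma-trend fit of group means (version 3.58.1 under R 4.3.3), with Benjamini-Hochberg adjustment within each of 10 comparisons, after a test on simulated data. All groups share a gene's estimate of spread, although the groups varied unequally. The root mean square deviation of a library from its group mean was 0.892 to 0.917 in SSY and 0.744 in MG. It was 0.608 in FGF, 0.668 in E1728G and 0.456 in ML1Y. Errors can thus be too small where a group varies more, as POLAR did in SSY and MG, and too large where it varies less. Every member is given in every library, pathway genes are named where they passed (others named were chosen after their values were seen), and the 5 genes most like POLAR and BASL by Pearson's r. Coding lengths, symbols and sequences came from RefSeq TAIR10.1, matched by locus code for 32835 of 33602 genes (Python 3.11.15). No table of protein sequences was used here. Alternatives were other filters, 1 added on the linear scale, quantile normalization, library weights, no mean trend, a replicate block, only the groups compared, each library left out, and, chosen after seeing the data, a fit without SSY.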

Additional observations from a re-analysis of the deposited data

How the results depend on the processing

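No polarity gene passed in the fit as reported, so there was no call to lose or reverse. Over 1950 values under alternatives, 10 were newly called, and 71 uncalled values changed sign. The count of polarity genes was 2 in SSY against ML1Y with quantile normalization (POLAR and BRXL2) and 1 with library quality weights (POLAR). In MG against ML1Y it was 1, POLAR, with the replicate block (3.13, adjusted p = 0.0429), with weights (adjusted p = 0.022) and in the fit without SSY, chosen after seeing the data (adjusted p = 0.0327). In E1728G against ML1Y it was 1 with weights (BRX), and in E1728G against MG it was 1 without SSY (POLAR, -3.13, adjusted p = 0.0452). The F test over groups gave 1, POLAR, with the filter at 50, with quantile normalization and with weights. Leaving out each library in turn gave 0 to 1 for SSY against ML1Y, for MG against ML1Y and for the F test, and 0 for the other comparisons. Over 2352 values of 12 named pathway genes, 36 calls were lost, 25 were gained and 0 reversed; with the replicate block MKK4 (0.0854) and FAMA (0.0523) in SSY against ML1Y and MUTE in FGF against MG (0.0525) missed the threshold. The adjusted p of POLAR ran over the alternatives between 0.0248 and 0.349 in SSY against ML1Y and between 0.022 and 0.525 in MG against ML1Y.

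Replicate numbers showed no sign of pairing the libraries: 0 of 20 correlations of deviations were over 0.1 (-0.0798 to 0.0334). Between groups of 2 libraries, replicates 1 and 2 give the same correlation by construction, so the 20 values are not all separate. Counts over all tested genes moved more. In SSY against ML1Y 1657 genes passed, with 299 to 1849 when a library was left out and 901 to 2140 under other settings. In MG against ML1Y 482 passed, with 36 to 629 and 364 to 983, in FGF against ML1Y 629, with 87 to 719 and 536 to 2430, and in E1728G against ML1Y 728, with 93 to 821 and 622 to 2178. Stage pairs ranged as widely: MG against SSY 634 (68 to 833, and 2 to 875), FGF against SSY 570 (3 to 856, and 0 to 898), E1728G against SSY 637 (24 to 883, and 0 to 914), FGF against MG 41 (0 to 259, and 1 to 110), E1728G against MG 174 (10 to 369, and 3 to 367) and E1728G against FGF 3 (1 to 83, and 0 to 15). For the stage pairs, the lowest count under other settings came from the fit of only the groups compared, except in FGF against MG, where quantile normalization gave it. The cause of these ranges was not tested. With 2 or 3 libraries a group, intervals of single genes were wide, such as -1.65 to 0.50 for BASL in SSY and 1.24 to 5.02 for POLAR in MG, and a p that missed the threshold does not show that levels were alike.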
